A study of Mus musculus with 2 samples.

Results

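The Msx and Dlx genes encode homeodomain transcription factors of limb ectoderm and mesenchyme, and their transcripts were measured in mouse embryonic limb. The 8 genes Msx1, Msx2, Dlx1, Dlx2, Dlx3, Dlx4, Dlx5 and Dlx6 were taken by symbol, 8 of 55536 genes in the deposited tables, and all 8 symbols matched a gene. The rule itself names symbols and uses no measured value. Limbs came from healthy B6NCrl embryos, an inbred C57BL/6N strain, at 12.5 days of development, with males and females pooled. There was 1 group of 2 biological replicates: replicate 1 pooled limbs of 88 embryos and replicate 2 limbs of 68 embryos. Libraries were prepared from 10 ng of RNA by oligo-dT priming and Nextera tagmentation, and ERCC spike-ins were added. The labels do not say whether forelimbs, hindlimbs or both were taken. No treated, mutant or second tissue group was analysed here, so levels are described and no condition is compared.

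Msx proteins mainly repress transcription, and Msx1 and Msx2 are classic targets of bone morphogenetic protein (BMP) signalling in the limb. Both are known from the distal mesenchyme, from the apical ectodermal ridge that drives limb outgrowth, and from the tissue between the digits. Dlx genes are the vertebrate relatives of fly Distal-less. They lie in linked pairs transcribed towards each other and sharing enhancers, and Dlx5 and Dlx6 in the ridge are known for the split hand and foot malformation that follows their loss. Outside the limb, Dlx1, Dlx2, Dlx5 and Dlx6 are known for forebrain inhibitory neurons, Dlx3 for epidermis, hair and placenta, and Dlx5 also for bone.

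The homeobox, the DNA stretch that encodes the DNA-binding homeodomain, is the feature that joins the 8 genes. It is shown first because the transcripts described later keep it, break it or lack it. The sequences were read 5′ to 3′ on the coding strand from the GENCODE M21 transcripts on mm10. The homeoboxes of Msx2 and the 6 Dlx genes are printed. Each has 180 bases, and capitals mark the 18 bases for the 6 residues at the core of the third helix, the helix that lies in the major groove of DNA.

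Msx2: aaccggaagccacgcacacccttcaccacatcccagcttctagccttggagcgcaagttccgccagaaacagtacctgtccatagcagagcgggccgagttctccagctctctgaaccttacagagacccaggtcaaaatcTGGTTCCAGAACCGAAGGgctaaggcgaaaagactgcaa
Dlx1: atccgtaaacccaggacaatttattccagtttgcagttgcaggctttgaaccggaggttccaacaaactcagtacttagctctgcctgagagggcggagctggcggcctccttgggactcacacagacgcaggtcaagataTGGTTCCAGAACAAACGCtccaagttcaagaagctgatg
Dlx2: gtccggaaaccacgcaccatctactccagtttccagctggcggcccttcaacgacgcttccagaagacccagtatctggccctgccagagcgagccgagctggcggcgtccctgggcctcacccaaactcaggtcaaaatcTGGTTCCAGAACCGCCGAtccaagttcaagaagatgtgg
Dlx3: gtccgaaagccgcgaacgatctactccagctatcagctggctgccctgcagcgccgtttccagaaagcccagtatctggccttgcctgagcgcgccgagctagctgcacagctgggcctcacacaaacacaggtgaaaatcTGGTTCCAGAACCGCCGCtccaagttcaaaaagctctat
Dlx4: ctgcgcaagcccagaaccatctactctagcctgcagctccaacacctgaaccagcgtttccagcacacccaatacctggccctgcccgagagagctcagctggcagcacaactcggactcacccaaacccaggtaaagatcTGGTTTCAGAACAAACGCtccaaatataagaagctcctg
Dlx5: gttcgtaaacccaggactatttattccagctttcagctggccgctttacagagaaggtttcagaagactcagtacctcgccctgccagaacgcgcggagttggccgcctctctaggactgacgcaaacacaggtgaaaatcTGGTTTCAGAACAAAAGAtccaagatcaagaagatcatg
Dlx6: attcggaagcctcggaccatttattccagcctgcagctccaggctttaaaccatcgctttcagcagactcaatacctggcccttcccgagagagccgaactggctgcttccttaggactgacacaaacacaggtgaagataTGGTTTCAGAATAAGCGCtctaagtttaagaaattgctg

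The Msx2 homeobox lies at chr13:53468370-53468549 on the minus strand, whole within exon 2 of 2. In all 6 Dlx genes the homeobox was split by an intron after base 132, between exons 2 and 3 of 3, just before the bases in capitals. The 15 pairs of Dlx genes were 66.1% to 81.7% identical in bases over the homeobox. Neighbours on a chromosome were not the closest in sequence. After translation, Dlx1 and Dlx6 differed at 2 residues and Dlx2 and Dlx5 at 4, whereas the linked Dlx1 and Dlx2 differed at 8, Dlx3 and Dlx4 at 12, and Dlx5 and Dlx6 at 9. Between the main transcripts, the longest shared run of bases was 11 to 23 nt among Dlx genes and 44 nt between Msx2 and Dlx6. The authors' posterior SD of the estimated reads per gene was 0 for all of the genes but Dlx1, and for Dlx1 it was 3.03 and 1.56 reads.

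Libraries held 29633457 and 30118921 reads over genes. Spike-ins took 3.19% of reads in replicate 1 and 2.24% in replicate 2. Levels are in TPM, a measure of transcript abundance corrected for gene length and sequencing depth, and are given as mean ± SD over n = 2 libraries. The RNA is of whole limb, so more cells with a transcript and more transcript per cell cannot be told apart. All 15 limb mesenchyme markers were at 1 TPM or more in both libraries, led by Prrx1 at 157 ± 3.34 TPM, Prrx2 at 156 ± 6.04 TPM and Pitx1 at 150 ± 20.1 TPM, with Hand2 lowest at 17.1 TPM. Of 20 limb ectoderm markers 18 were, led by the keratins Krt14 at 120 ± 7.21 TPM and Krt5 at 82.9 ± 3.12 TPM and by Perp at 49.3 ± 0.728 TPM, with the ridge signal Fgf4 lowest at 0.385 TPM.

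All 8 Msx and Dlx genes reached 1 TPM in both libraries; 7 reached 1 in the deposited FPKM, and 6 reached 1 TPM over homeodomain-encoding transcripts alone, with Dlx4 below in both and Dlx1 in the latter. That level was reached by 27.3% of all genes, by 58.1% of protein-coding genes and by 49.2% of the 193 homeobox genes found. The 2 Msx genes summed to 411 and 446 TPM, 428 ± 24.7 TPM, and the 6 Dlx genes to 52.9 and 47.9 TPM, 50.4 ± 3.52 TPM. Msx1 held 87.8% and 87.1% of the Msx sum, and Dlx5 62.7% and 56.5% of the Dlx sum.

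Msx1 (ENSMUSG00000048450.10, chr5:37820485-37824583, minus strand) was at 361 TPM in replicate 1 and 389 TPM in replicate 2, from 13049 and 14196 reads. Its mean of 375 ± 19.6 TPM was the highest of all 193 homeobox genes and ranked 348 among protein-coding genes. Msx2 (ENSMUSG00000021469.9, chr13:53466884-53473074, minus strand) was at 50.2 and 57.4 TPM, 53.8 ± 5.12 TPM, from 2325 and 2681 reads, place 15 among homeobox genes. Both Msx genes were higher in replicate 2. Msx1 exceeded Msx2 by log2 ratios of 2.85 and 2.76, on average 6.98-fold. This was past the spread between libraries, taken as the 95th percentile of the absolute log2 library difference over the 500 genes closest to the lower gene in mean TPM, 0.253 here. A ratio counts as past the spread if both libraries give 1 sign and the smaller ratio exceeds that value. This is a description of 1 group of 2 libraries, with no p-value. Msx3, the family's gene of the dorsal neural tube, had 0 and 3 reads (0 and 0.08 TPM). In replicate 1, 3 reads, the limit a count of 0 allows, would be 0.0719 TPM.

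**Figure D1:**
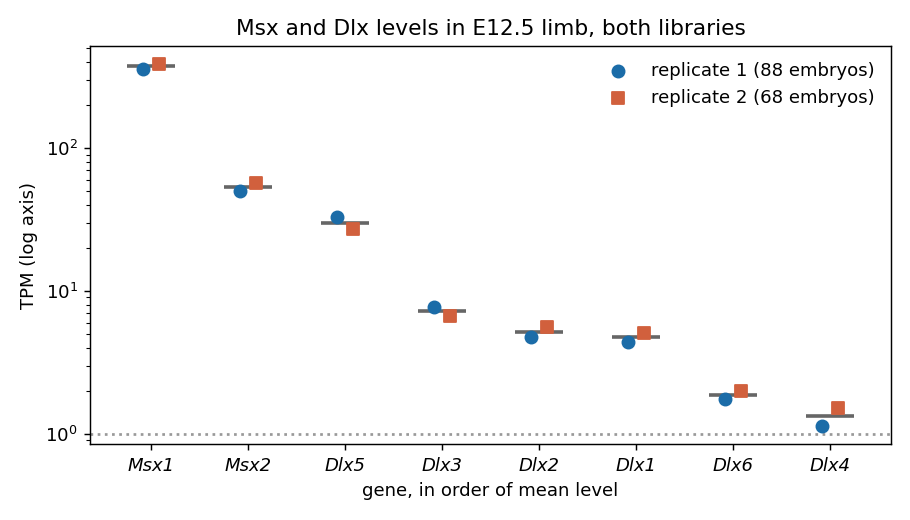
Levels of the 8 genes in TPM on a log axis, with 1 point per library a bar at the mean of the 2 libraries and a dotted line at 1 TPM. Msx1 stands highest at 361 and 389 TPM, Msx2 and Dlx5 follow, and Dlx6 and Dlx4 sit lowest between 1.13 and 2.00 TPM.

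Dlx5 (ENSMUSG00000029755.10, chr6:6877805-6882085, minus strand), known in ridge and in bone-forming cells, was at 33.2 and 27.1 TPM, 30.1 ± 4.32 TPM, from 862 and 712 reads. Its partner Dlx6 (ENSMUSG00000029754.13, chr6:6863334-6868568, plus strand) was at 1.75 and 2.00 TPM, 1.88 ± 0.177 TPM, from 47 and 51 reads. Dlx5 was thus the higher of this linked pair in both libraries, by log2 ratios of 4.24 and 3.76, on average 16.01-fold and past the spread of 1.08.

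Dlx3 (ENSMUSG00000001510.8, chr11:95120119-95125296, plus strand) was at 7.74 and 6.66 TPM, 7.20 ± 0.764 TPM, from 383 and 333 reads. Dlx4 (ENSMUSG00000020871.8, chr11:95140447-95146263, minus strand) was at 1.13 and 1.51 TPM, 1.32 ± 0.269 TPM, from 45 and 59 reads. Dlx3 exceeded Dlx4 by log2 ratios of 2.78 and 2.14, on average 5.50-fold and past the spread of 1.39. At this depth counting error alone gave a coefficient of variation of 14.9% and 13.02% for Dlx4, against 0.875% and 0.839% for Msx1.

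Dlx2 (ENSMUSG00000023391.8, chr2:71543408-71546754, minus strand) was at 4.72 and 5.62 TPM, 5.17 ± 0.636 TPM, from 221 and 252 reads. Dlx1 (ENSMUSG00000041911.3, chr2:71528113-71533981, plus strand) was at 4.38 and 5.06 TPM, 4.72 ± 0.481 TPM, from 242.12 and 210.63 estimated reads. This pair was the only linked pair without a difference past the spread: the log2 ratios of Dlx1 to Dlx2 were -0.11 and -0.15 against a spread of 0.69. For Dlx1 TPM and reads moved in opposite directions between libraries. Its TPM was higher in replicate 2 while its reads were fewer. The effective length that the authors' estimate gave the gene was 2086 nt in replicate 2 and 2803 nt in replicate 1.

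In order of mean level the genes ran Msx1, Msx2, Dlx5, Dlx3, Dlx2, Dlx1, Dlx6 and Dlx4. Msx2 exceeded its neighbour Dlx5 by log2 ratios of 0.60 and 1.09, past the spread of 0.315, and Dlx5 exceeded Dlx3 by 2.10 and 2.02, past 0.635. Dlx1 exceeded Dlx6 by 1.32 and 1.34, past 1.08. Over homeodomain-encoding transcripts alone, however, the mean log2 ratio turned to -1.31, which was not past the spread of 1.55 in that setting. Neighbours that did not differ beyond the spread were Dlx3 and Dlx2, with log2 ratios of 0.71 and 0.24 against 0.684, Dlx2 and Dlx1, and Dlx6 and Dlx4, with 0.63 and 0.41 against 1.39. The order within the groups Dlx3, Dlx2 and Dlx1 and Dlx6 and Dlx4 is therefore not resolved by these libraries. The spread measures differences between the libraries only. For the other neighbours it does not cover an error of a gene's level that both libraries share.

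**Figure D2:**
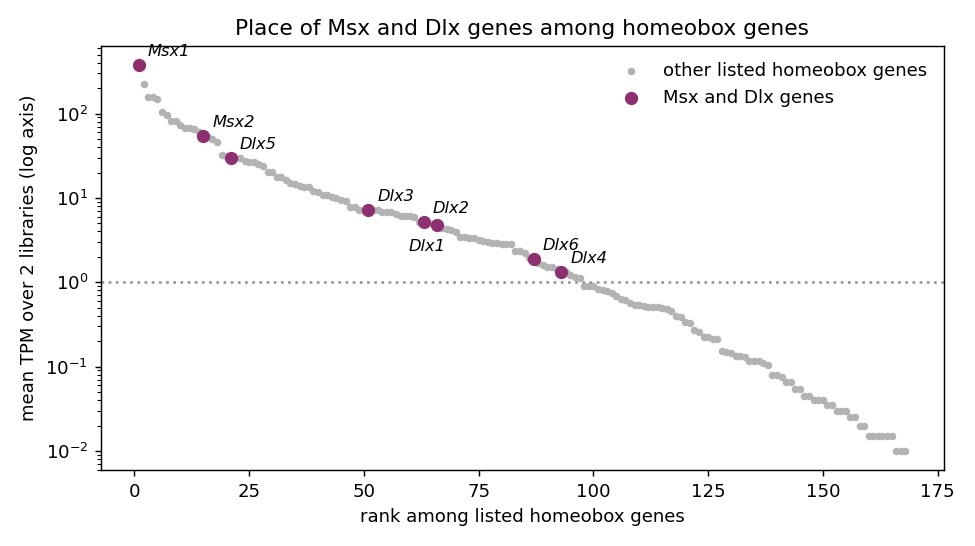
Mean TPM over 2 libraries (log axis) of the listed homeobox genes against their rank, with the Msx and Dlx genes marked, a dotted line at 1 TPM and the 25 genes at 0 reads in both libraries left off. Msx1 is at rank 1, Msx2 at 15 and Dlx5 at 21, while the other 5 Dlx genes lie between ranks 51 and 93.

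Among 193 homeobox genes the other ranks were 21 for Dlx5, 51 for Dlx3, 63 for Dlx2, 66 for Dlx1, 87 for Dlx6 and 93 for Dlx4. In the NK-like class to which Msx and Dlx belong, 17 of 48 genes were at 1 TPM or more in both libraries, and 8 of these 17 were the Msx and Dlx genes. The median level of the class was 0.190 TPM, and that of the 145 other homeobox genes found was 1.68 TPM, of which 78 reached 1 TPM. These 2 sets held 11 and 14 genes with 0 reads in both libraries, among them Vax1, for which 3 reads would be 0.277 and 0.275 TPM. Msx1, Msx2 and Dlx5 held the first 3 places in the class.

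The homeobox genes nearest in mean log2 TPM over the 2 libraries place each gene on the scale of this tissue. The nearest to Msx1 were Hoxa10, at 223 ± 15.4 TPM, and Prrx1, both well known in limb mesenchyme. Msx2 lay beside Meox2, a gene of limb mesenchyme and muscle, at 50.5 ± 3.58 TPM. Dlx5 lay beside the tendon gene Mkx at 29.6 ± 2.45 TPM and Pknox1 at 29.5 ± 1.77 TPM. Dlx3 was nearest to Pitx3 and Irx2, Dlx2 to Irx4 and Irx1, Dlx1 to Nkx3-2 and Hoxb2, Dlx6 to Hoxc12 and Irx6, and Dlx4 to Pax3 and Emx1, all within 0.16 log2 units. Nearness of level is the whole of this measure.

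Transcripts were not equally divided among kinds. The M21 annotation lists 22 transcripts for the 8 genes, and entries that encode the whole homeodomain held 93.4% ± 0.431 of Msx1 TPM, 99.0% ± 0.453 of Msx2, 93.2% ± 2.72 of Dlx5, 96.6% ± 4.78 of Dlx2, and all of Dlx3 and Dlx6. They held 72.4% ± 5.26 of Dlx4 and 16.8% ± 6.95 of Dlx1.

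**Figure D3:**
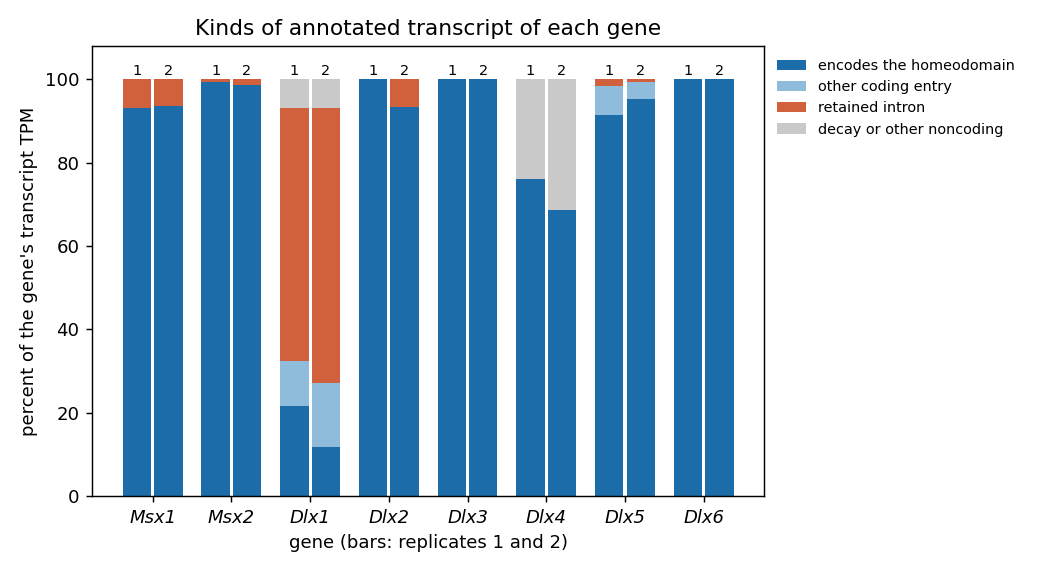
Percent of each gene's summed transcript TPM in each kind of annotated entry, as stacked bars for replicates 1 and 2. Entries that encode the homeodomain fill 93.1% or more of the Msx1 and Msx2 bars and 21.7% and 11.9% of the Dlx1 bars, where retained introns take the largest share.

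Dlx1 had 6 annotated transcripts. The coding transcript Dlx1-201 of 4111 nt was given 75.24 and 48.34 reads, with the authors' posterior SDs of 13.5 and 10.06 reads, or 0.95 and 0.60 TPM. The retained intron entry Dlx1-203 of 3385 nt was given 152.54 and 128.80 reads, with posterior SDs of 12.68 and 9.61, or 2.35 and 1.97 TPM. The retained intron entries Dlx1-203 and Dlx1-206 together held 60.7% and 65.8% of Dlx1 TPM, 63.3% ± 3.59. Of these, Dlx1-206 holds all 180 bases of the homeobox unbroken. It is annotated as a retained intron and was not counted as encoding the homeodomain. Replicates differed most in the small entry Dlx1-206, which held 7.08% in replicate 1 and 26.9% in replicate 2 from 4.35 and 19.15 reads. Dlx1-201 and Dlx1-203 share 2277 nt, and Dlx1-203 adds 1108 nt, so the estimate rests on reads outside the shared part. Their sequences part within the homeobox, at the end of exon 2 (chr2:71531156), and 20 bases on each side of that point are shown, with capitals for the bases after it.

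Dlx1-201: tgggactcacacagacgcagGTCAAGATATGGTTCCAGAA
Dlx1-203: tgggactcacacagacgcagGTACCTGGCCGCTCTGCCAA

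In Dlx1-201 the next base is the start of exon 3 at 71532264, and the capitals run into the conserved bases of the homeobox. In Dlx1-203 the next base is 71531157, in the intron, so the homeobox is interrupted. Counted over homeodomain-encoding entries alone, Dlx1 was at 0.775 ± 0.247 TPM and moved from place 6 to place 8 of the 8 genes in mean level. Its place against Dlx4 differed between libraries. Dlx1 was above Dlx4 in replicate 1, at 0.95 against 0.86 TPM, and below in replicate 2, at 0.60 against 1.03 TPM. The log2 ratio of Dlx1 to Dlx2 was then -2.72, past the spread, a value computed after the data were seen. That spread is of gene levels and does not cover the error of dividing reads among transcripts. Part of the Dlx1 exons also lies opposite the antisense gene Dlx1as, described with the loci.

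Dlx5-201, the entry with the whole homeobox, was given 791.69 and 679.73 reads, or 30.3 and 25.8 TPM. Dlx5-202 starts exon 2 82 nt further in, which is not a whole number of codons. Its annotated reading frame of 438 nt, against 867 nt in Dlx5-201, shares 355 nt of exon 1 and then runs 83 nt in another frame. It was given 56.66 and 28.06 reads with posterior SDs of 22.2 and 15.09, or 5.65% ± 1.98 of Dlx5 TPM. The junctions from exon 1 (last base chr6:6881532, minus strand) to exon 2 are shown, with the exon 2 bases in capitals.

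Dlx5-201: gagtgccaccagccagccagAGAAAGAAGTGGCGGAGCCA
Dlx5-202: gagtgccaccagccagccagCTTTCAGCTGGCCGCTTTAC

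The capitals of Dlx5-202 begin inside the homeobox printed above, of which this entry holds 151 of 180 bases. They are not read in the homeodomain frame, and no stretch of 5 homeodomain residues was found in the translation.

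Msx1 had a retained intron entry, Msx1-202, of 879.11 and 872.05 reads (25.01 and 24.56 TPM), or 6.63% ± 0.431 of Msx1 TPM. It covers 1162 nt of the intron at chr5:37822703-37823864 and lacks the homeobox. By TPM this entry alone was above Dlx3, Dlx2, Dlx1, Dlx6 and Dlx4 in both libraries. The corresponding entry of Msx2 held 1.04% ± 0.453. Dlx2-202, a retained intron entry that holds the Dlx2 homeobox unbroken, was given 0 and 3.99 reads. The noncoding entry Dlx4-202 held 27.6% ± 5.26 of Dlx4 TPM from 8.02 and 14.13 reads. Dlx6 was divided between Dlx6-203 at 69.8% ± 5.24 and Dlx6-202 at 30.2% ± 5.24 from no more than 28.52 reads each. By share of expected counts, not divided by length, they held 51.5% and 48.5%. Both encode the same protein and differ in the 3′ exon.

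The 8 genes lie at 5 loci. Dlx1 and Dlx2 on chromosome 2, Dlx3 and Dlx4 on chromosome 11 and Dlx5 and Dlx6 on chromosome 6 point towards each other, with gaps of 9.43, 15.2 and 9.24 kb between their 3′ ends. No other gene overlaps Msx1, Msx2, Dlx2, Dlx3 or Dlx5. Dlx1as, an antisense noncoding gene, was at 1.10 ± 0.283 TPM from 14.88 and 9.37 reads, and its exons overlap 335 of the 5396 exonic nt of Dlx1 (6.21%) and none of the Dlx1 introns. Dlx1as had the same posterior SD as Dlx1, 3.03 reads in replicate 1 and 1.56 in replicate 2. Dlx4os was at 1.72 and 1.44 TPM, 1.58 ± 0.198 TPM, beside 1.32 ± 0.269 TPM for Dlx4, whose exons it overlaps by 79 nt. Dlx6os1, also called Evf2 and known to act on the Dlx5 and Dlx6 enhancers in forebrain, was at 0.56 and 0.58 TPM from 48 and 51 reads, and it shares no exon base with Dlx6. Dlx6os2 was given 6 and 0 reads. Whether counting used strand was not given in the sources used here, so reads in the overlaps cannot be assigned to 1 strand.

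**Figure D4:**
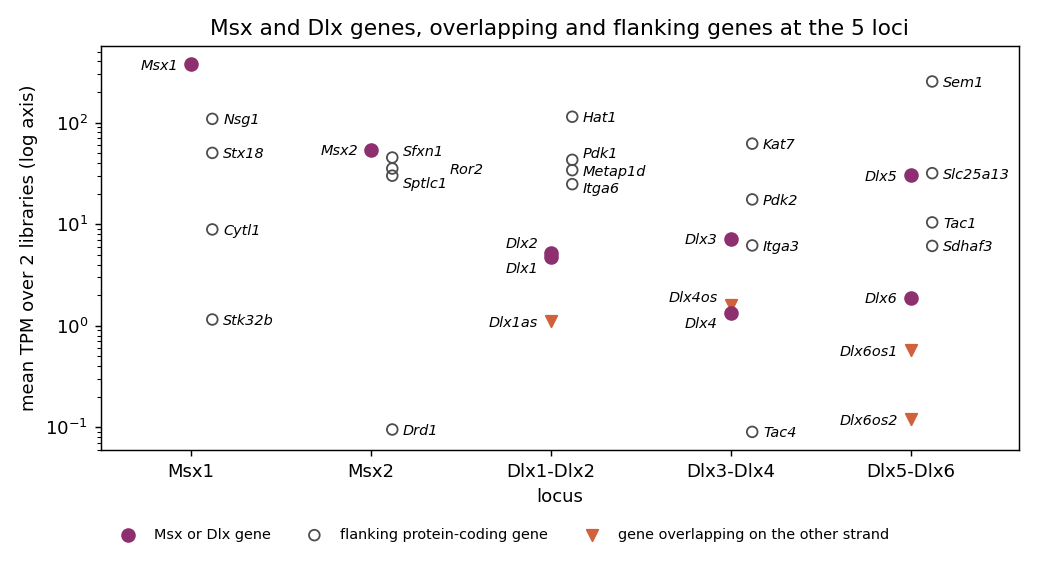
Mean TPM over 2 libraries (log axis) of the Msx and Dlx genes, the genes that overlap them on the other strand, and the 2 nearest protein-coding genes on each side of the 5 loci. All 4 genes flanking Dlx1 and Dlx2 lie above both, and all 4 flanking Msx1 and all 4 flanking Msx2 lie below.

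The nearest 2 protein-coding genes on each side of each locus made 20 flanking genes, 17 of them at 1 TPM or more in both libraries. Their median level was 30.9 TPM. All 4 flanking genes were below Msx1, among them Nsg1 at 109 ± 2.78 TPM and Cytl1, a secreted cartilage protein 80.7 kb away, at 11.4 and 6.30 TPM. All 4 were below Msx2, the nearest in level being Sfxn1 at 45.3 ± 1.00 TPM. All 4 were above Dlx1 and Dlx2. Metap1d, 2.92 kb from Dlx1, was at 34.0 ± 0.255 TPM, and the histone acetyltransferase gene Hat1 at 114 ± 4.13 TPM. Beside Dlx3 and Dlx4 the flanking levels ran from 0.0900 TPM for Tac4 to 62.0 TPM for Kat7. Beside Dlx5 and Dlx6 they ran from 6.10 TPM for Sdhaf3 to 254 TPM for Sem1, the proteasome gene formerly called Shfm1, and Slc25a13, whose gene body holds known limb enhancers, was at 31.8 ± 2.76 TPM, close to Dlx5.

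The genes of the BMP pathway, which acts upstream of Msx genes, were broadly present. Of 25 listed ligands, receptors, Smads, antagonists and Id targets, 24 were at or above 1 TPM in each library. The median of all 25 was 21.4 TPM, beside 15.3 TPM over all genes tested. The genes tested had to reach a mean of 1 TPM, and the listed genes did not. The Id genes, direct targets that encode inhibitors of basic helix-loop-helix factors, led: Id3 stood at 517 ± 10.7 TPM, followed by Id2 (293 ± 5.95 TPM) and Id1 (248 ± 21.1 TPM). Of the 24, 2 had an adjusted p under the threshold of the library comparison described later with a higher value in replicate 2, and 4 with a higher value in replicate 1, beside 8.96% and 10.3% of all genes tested. Smad9 was lowest at 0.785 ± 0.148 TPM. Of the 10 bone genes 7 reached 1 TPM, beside 58.1% of all protein-coding genes, and the median of the 10 was 2.76 TPM. Col1a1 at 253 ± 30.4 TPM and Atf4 at 88.3 ± 1.56 TPM led. Runx2, the factor that commits cells to bone, was at 7.94 ± 1.88 TPM and Dmp1 was lowest at 0.255 TPM.

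Genes of the forebrain inhibitory neurons that use Dlx1, Dlx2, Dlx5 and Dlx6 were low. Of 10 listed genes 9 were below 1 TPM, the exception being Sst at 1.38 and 1.37 TPM, and their summed level was 3.51 and 3.06 TPM. Lhx6, a factor of cortical interneurons, was at 0.780 TPM. General neuronal and nerve genes reached 1 TPM in 6 of 10 cases, led by Map2 at 24.1 ± 2.14 TPM, with Isl1 at 6.94 and 13.3 TPM, Tubb3 at 7.13 and 11.5 TPM and Neurog1 lowest at 0 and 2 reads. Their sum was 57.4 TPM in replicate 1 and 67.2 TPM in replicate 2.

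The 2 libraries were compared gene by gene. Expected counts were rounded and entered in a two-sided exact binomial test, with Benjamini-Hochberg adjustment over the 15926 genes whose mean reached 1 TPM. The test compares these libraries and not conditions, and its p covers counting error only. With a required TPM difference of 2-fold and adjusted p below 0.05, 0 of the 8 genes were called, against 1.07% of all genes tested. Without a required fold, 3 of 8 were called, against 19.2% of all genes tested. Msx1 and Msx2 were higher in replicate 2, by log2 ratios of 0.11 (adjusted p = 3.19e-07, exact binomial test) and 0.19 (adjusted p = 0.000117, exact binomial test), and 8.96% of genes were called in that direction. Dlx5 was lower in replicate 2 by a log2 ratio of -0.29 (adjusted p = 0.000667, exact binomial test), and 10.3% of genes were called in that direction. The other 5 Dlx genes were not called, with log2 ratios of -0.22 for Dlx3, 0.25 for Dlx2, 0.21 for Dlx1, 0.19 for Dlx6 and 0.42 for Dlx4. Adjusted p-values at other settings ran from 2.64e-09 to 6.36e-07 for Msx1, from 2.49e-05 to 0.000207 for Msx2 and from 0.000532 to 0.00169 for Dlx5, in the same exact test. All 8 differences lay within the 95th percentile of the 500 genes nearest in level, Dlx5 closest to it with 0.294 against 0.315.

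**Figure D5:**
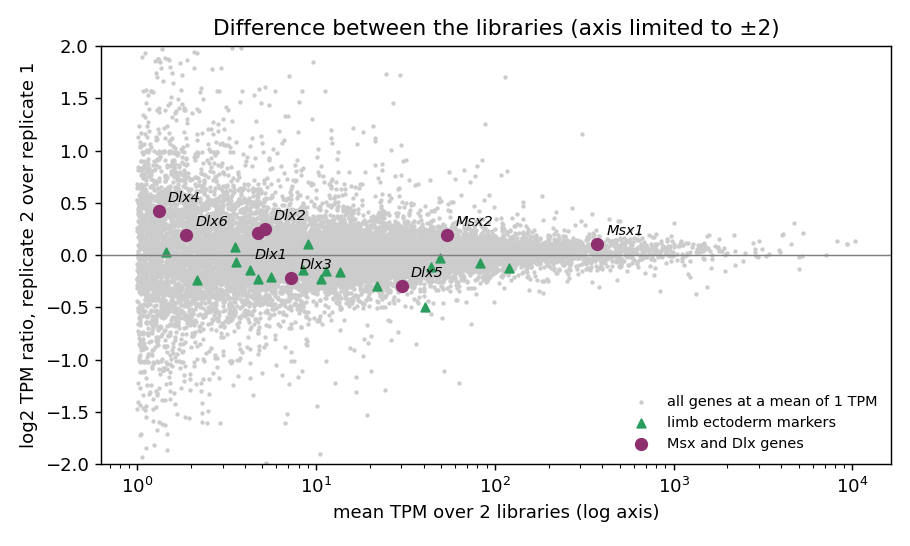
Log2 TPM ratio of replicate 2 over replicate 1 against mean TPM (log axis), for all genes at a mean of 1 TPM, the limb ectoderm markers and the 8 Msx and Dlx genes; genes beyond the axis limits of -2 and 2 are not drawn. Msx1 and Msx2 lie above 0 and Dlx5 and Dlx3 below, with the 8 genes inside the cloud of genes at their level.

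Marker genes of limb cell types were compared in the same test, in which 8.96% of all genes tested were called higher in replicate 2 and 10.3% higher in replicate 1. The summed level of the 20 ectoderm markers was 460 TPM in replicate 1 and 416 TPM in replicate 2, and 15 of the 18 tested were higher in replicate 1, of which 3 passed the adjusted p (Krt14, Krt15 and Trp63, the master factor of epidermis). Trp63 was at 24.2 and 19.7 TPM, a log2 ratio of -0.29, beside a median of -0.14 over the 18 ectoderm markers tested. The summed level of the 15 mesenchyme markers was 1004 and 1030 TPM, 10 being higher in replicate 2, and 6 passed the adjusted p in that direction and 3 in the other. The hindlimb factor Pitx1 was at 136 and 164 TPM and the forelimb factor Tbx5 at 39.96 and 28.38 TPM. Of the 7 bone genes tested 5 were higher in replicate 1, and 4 passed the adjusted p. Krt15, Trp63 and Tbx5 were named after their values were seen. The part of these cell types, or of forelimb and hindlimb, in the differences of Msx1, Msx2 and Dlx5 was not tested. Among the listed homeobox genes 3 were called at 2-fold: Nkx3-2, at 6.82 and 3.13 TPM (adjusted p = 7.80e-10, exact binomial test), Lbx2, at 0.49 and 5.31 TPM (adjusted p = 7.82e-14, exact binomial test), and Hoxb5, at 1.66 and 0.66 TPM (adjusted p = 0.00314, exact binomial test).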

How the data were processed

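Limb RNA of 2 biological replicates was analysed, and the replicate numbers come from the labels. The authors deposited expected counts, estimated per gene and per transcript, in tables with RSEM's column layout. TPM and FPKM were computed by the authors from these counts and deposited, over all entries including 97 spike-in or control entries and 26248 tRNA entries. The percent of each transcript in its gene was also deposited by the authors. Each library was quantified with GENCODE M21, used here, and with GENCODE M4, both on mm10, per the labels and deposited descriptions. For the aligner, the program version and the strand setting the record is: not given in the sources used here. Effective length is the length less 99 nt.

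From these values, shares of TPM, log2 ratios without a pseudocount, ranks and library differences were computed with Python 3.11.15, pandas 2.3.3 and SciPy 1.17.1. Expected counts were rounded to whole numbers for the binomial test, with library sizes from edgeR 4.0.16 (TMM) over genes alone. With 1 group of 2 libraries no quasi-likelihood comparison could be made. Calls at 2-fold, the spread and the shares were tested on simulated data, and calls without a required fold were not. The simulated calls took the 2-fold from counts, whereas the calls reported here took it from TPM, so that step was not tested. Homeoboxes were found by translating the GENCODE M21 coding sequences and locating the conserved core of the third helix. Gene coordinates are those of GENCODE M21. Of 194 listed homeobox symbols 193 were found.

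The 8 genes and the lists were chosen with earlier results of these data known. Named genes were the 8 genes, their overlapping and flanking genes, Msx3, the 3 highest and the lowest gene of a list, the 2 homeobox genes nearest in level to each, and list genes called at 2-fold. Alternatives were the M4 annotation, FPKM, rescaled TPM, a pseudocount of 1 TPM, counts without length, 200 genes for the spread, DESeq2 1.42.0 size factors, total counts, other TPM minima and either library alone. Some items that this rule or the sequences would include are not reported here.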

Additional observations from a re-analysis of the deposited data

How the results depend on the processing

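The labels name 1 group of 2 biological replicates, so p-values cover counting error between 2 pools. No paired analysis was possible because there is 1 group. For the 9 ratios 68 of 72 alternatives kept the direction and the side of the spread. Some of these alternatives were fixed in advance, so the total does not measure robustness. FPKM repeats the TPM ratio apart from rounding. A pseudocount or another number of genes for the spread cannot change the direction. A ratio past the spread exceeds it in both libraries by definition, so either library alone must give the same side. With homeodomain-encoding transcripts alone, chosen after seeing the data, the log2 ratio of Dlx1 to Dlx2 was -2.72 and passed the spread of gene levels. That of Dlx1 to Dlx6 turned to -1.31 and was not past the spread of 1.55. By construction this setting leaves out the retained intron entries, and the spread does not cover the division of reads among transcripts. Without division by length the ratio of Dlx6 to Dlx4 turned to -0.074. The ratio of Dlx3 to Dlx2 ran from 0.24 to 0.71 with either library alone and passed the spread in replicate 1 alone. Genes called between libraries numbered 38 at a mean of 5 TPM and 378 with no minimum, against 170. By share of expected counts, homeodomain-encoding entries held 27.0% of Dlx1 and 79.1% of Dlx4. At 5 TPM 3 bone genes, 0 forebrain genes and 8 NK-like homeobox genes reached the minimum, and at 0.5 TPM 2 forebrain genes passed. Depth limits Dlx4 and Dlx6, with 45 to 59 reads.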
